A study of Mus musculus with 2 samples.

Results

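The genes Cga and Gnrhr were examined together with their flanks, as every ATAC-seq peak whose summit lay in the gene body or within 50 kb of either end of it (GENCODE vM21 annotation of GRCm38). In replicate 1 this gave 11 of the 58519 peaks of the list, 7 at Cga and 4 at Gnrhr. In replicate 2 it gave 15 of 64984 peaks, 8 at Cga and 7 at Gnrhr. The samples were 2 replicates of LβT2 cells, a mouse gonadotrope line established from a pituitary tumour in which the regulatory region of rat LHβ drove the SV40 T antigen, used at passage 21. Both had received 4 pulses of 2 nM GnRH, spaced 2 h apart over 6 h 45 min, and were harvested 45 min after the last pulse. ATAC-seq maps open chromatin by the integration of sequencing adapters with Tn5 transposase. All values are of this 1 condition (n = 2), since untreated cells were not part of the samples read, and whether the replicates, which have no order, came from separate cultures is not stated in the labels.

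Cga encodes the α-subunit shared by LH, FSH and TSH, and in the pituitary it is transcribed in gonadotropes and thyrotropes. Gnrhr encodes the G protein-coupled receptor through which gonadotropes sense hypothalamic GnRH, and its coupling to Gq/11 activates phospholipase C and the MAP kinases. The Cga promoter is known to be bound by LIM homeodomain and Pitx proteins, SF1, GATA2 and CREB, and the Gnrhr promoter by SF1, AP1 and LIM homeodomain proteins. The mouse Cga gene also has a described distal enhancer some kilobases upstream of its promoter.

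Cga lies on the plus strand at chr4:34893779-34907370 and Gnrhr on the minus strand at chr5:86180754-86197901. Printed here are sequences of the promoter peak of each gene, of the nearest peak upstream of Cga and of the higher intronic peak of Gnrhr, so that the motifs can be read in place. They are GRCm38 sequences on the strand of the gene, 5′ to 3′. Capitals mark every match, on either strand, to 14 motifs and to 2 further forms that were chosen after the Cga promoter had been read. The first stretch runs from −350 to −51 relative to the Cga transcription start site (TSS), chr4:34893429-34893728, and holds the summits of both replicates. The second runs from −300 to −1 at Gnrhr, chr5:86197902-86198201, and also holds both summits. The third is the 201 bp centred on the replicate 2 summit upstream of Cga, chr4:34889966-34890166, in intergenic sequence. The fourth is centred in the same way on the peak in intron 1 of Gnrhr, chr5:86191911-86192111.
Cga promoter: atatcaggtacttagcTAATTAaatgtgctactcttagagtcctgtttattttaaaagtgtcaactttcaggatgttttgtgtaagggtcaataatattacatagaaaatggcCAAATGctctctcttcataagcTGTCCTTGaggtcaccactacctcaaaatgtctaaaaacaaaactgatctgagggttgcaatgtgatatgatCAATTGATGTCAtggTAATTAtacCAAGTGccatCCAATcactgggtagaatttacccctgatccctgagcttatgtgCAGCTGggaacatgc
Gnrhr promoter: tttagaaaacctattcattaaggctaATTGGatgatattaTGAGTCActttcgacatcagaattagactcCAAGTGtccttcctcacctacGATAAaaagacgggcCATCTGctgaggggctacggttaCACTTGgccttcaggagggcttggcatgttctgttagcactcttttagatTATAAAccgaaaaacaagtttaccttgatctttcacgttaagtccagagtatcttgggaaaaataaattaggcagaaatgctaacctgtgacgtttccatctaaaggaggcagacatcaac
Cga upstream peak: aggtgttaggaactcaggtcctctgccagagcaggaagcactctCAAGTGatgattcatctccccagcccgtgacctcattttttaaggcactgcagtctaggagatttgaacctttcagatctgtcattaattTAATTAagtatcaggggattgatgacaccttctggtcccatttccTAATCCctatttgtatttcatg
Gnrhr intron 1 peak: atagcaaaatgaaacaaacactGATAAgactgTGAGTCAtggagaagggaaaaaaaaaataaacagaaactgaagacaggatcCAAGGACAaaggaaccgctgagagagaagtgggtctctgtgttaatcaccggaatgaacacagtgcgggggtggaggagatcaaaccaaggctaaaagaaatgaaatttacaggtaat

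For nuclear receptors and bZIP factors, the motif searched was AAGGTCA for SF1, with TGACTCA standing for AP1 and TGACGTCA for the CRE. Homeodomain motifs were TAATTA for LHX proteins and TAATCC for PITX proteins. Zinc finger motifs were GATAA for GATA factors, GCGTGGGCG for EGR1, GGGCGG for SP1, and CTCF by its usual consensus. The others were the E-box CANNTG, the motif CCAAT bound by NFY, the palindrome GTCTAGAC bound by SMAD proteins, the TATA box as TATAAA, and TGTTTAC for FOX proteins. The 2 forms added were a variant CRE (TGATGTCA) and a variant SF1 element (TGTCCTTG). In the Cga promoter the E-box match CAATTG overlaps the variant CRE. Within 100 bp of the Cga promoter summit, replicate 1 had 4 matches to the 14 motifs, for LHX, PITX, GATA and E-box, and replicate 2 had 2, for LHX and E-box. The difference came from the position of the summit, since the underlying sequence is the same. The TAATTA near the summit lies from −334 to −329, and a further TAATTA lies from −128 to −123, beside the variant CRE from −139 to −132. The variant SF1 element lies from −215 to −208, and TATAAA from −30 to −25, downstream of the printed stretch. The LHX motif occurred in 2.44% of all summit windows of 201 bp in replicate 1, in 2.30% in replicate 2, and in 4.46% of 20004 RefSeq promoters of 300 bp (GRCm38.p6). For the variant CRE these shares were 0.733%, 0.692% and 2.96%, and for PITX 5.33%, 5.82% and 6.42%.

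LHX matches recurred across the Cga window. Within 100 bp of the summit, 3 of 7 Cga peaks in replicate 1 and 3 of 8 in replicate 2 held TAATTA, namely the promoter, the peak 3.71 kb upstream and the peak 24.0 kb downstream of the TSS. None of the Gnrhr peaks held it in that window, but the wider intron 1 peak of replicate 2 held it farther out, from 6033 to 6038 bp and from 5320 to 5325 bp downstream of the TSS. At Cga, the peak of replicate 2 at 4.66 kb also held it farther out, from 4771 to 4776 bp. Over whole peaks, replicate 2 had it in 4 of 8 Cga peaks and 1 of 7 Gnrhr peaks. The upstream Cga sequence combines TAATTA from −3679 to −3674 with TAATCC from −3634 to −3629 and an E-box. An E-box, which 66.9% and 66.5% of all summit windows held, was present in 7 of 7 and 7 of 8 Cga peaks and in 3 of 4 and 2 of 7 Gnrhr peaks.

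The Gnrhr promoter summit had a single match to the 14 motifs within 100 bp in each replicate, GATAA from 20 to 24 bp downstream of the TSS, and the variant SF1 element from 61 to 68 bp. GATAA occurred in 25.8% and 25.5% of all summit windows. Farther from the summit but inside the peak of both replicates, TGAGTCA, the AP1 motif on the other strand, lies from −260 to −254, and TGACCTT, the SF1 motif on the other strand, from 323 to 329 bp downstream of the TSS. This SF1 match, the only one in the promoter peak, lies in exon 1 past the start codon, which is at 76 bp. The GATAA near the summit and the variant SF1 element lie between the TSS and the start codon. The SF1 motif occurred in 4.29% and 5.06% of summit windows and in 3.97% of RefSeq promoters. The higher intronic Gnrhr peak held the AP1 motif TGAGTCA from 5822 to 5828 bp downstream of the TSS, within 100 bp of the summit in both replicates, between GATAA and the variant SF1 element. The variant SF1 element, a form added with the sequence in view, was held by 1.64% and 1.99% of summit windows and by 1.34% of RefSeq promoters. AP1 matches were present in 2.09% and 2.28% of summit windows and in 4.63% of RefSeq promoters. Within 100 bp of a summit, the only other AP1 match in either window belonged to the weak Cga peak 4.66 kb downstream of the TSS. CRE, SMAD palindrome and CTCF matches were found in no peak of either window, which says only that these letters are not there. They were rare in all summit windows, at 0.533% and 0.653% for CRE in replicates 1 and 2. The shares were 0.119% and 0.129% for the SMAD palindrome and 0.495% and 0.742% for CTCF.

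The promoters of both genes carried a peak in each replicate, as did 30.8% of 21924 protein-coding genes in both replicates. By replicate, a peak summit lay within 1 kb of a TSS for 32.3% of these genes in replicate 1 and for 44.4% in replicate 2. Each deposited peak has a fold enrichment over the background at the summit and a p and a q as −log10, and the number of tags at the summit was solved from fold and p (a tag being a mapped read extended to 200 bp). The 50 bp at the summit occurred once in the genome for 33.1% of peaks in replicate 1 and 38.8% in replicate 2. Ranks within a whole list are thus mostly against peaks with multi-copy summits. The median peak of the lists held 14 tags in replicate 1 and 16 in replicate 2, against a background of 3.05 and 3.54 tags. Counts of this size have wide intervals, which are given here as 95% exact Poisson intervals and cover counting error only.

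The Cga promoter peak held 25 tags in replicate 1 (16.2 to 36.9) and 50 in replicate 2 (37.1 to 65.9). Its fold enrichment was 6.42 and 11.2, a mean of 8.83 ± 3.41 (SD, n = 2), and its −log10 q was 12.0 and 36.0. It was thus the highest peak of the Cga window in each replicate. The peak ran from −807 to 379 bp relative to the TSS in replicate 1 and from −875 to 250 bp in replicate 2, and covered the noncoding exon 1, which ends 83 bp into the gene. Its summit lay upstream of the TSS, at −315 and −264. With a width of 1187 and 1126 bp it was wider than most peaks, at the percentiles 95.6 and 94.2 of its list.

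The Gnrhr promoter peak held 22 tags in replicate 1 (13.8 to 33.3) and 33 in replicate 2 (22.7 to 46.3). The fold enrichment was 5.68 and 7.50, a mean of 6.59 ± 1.28 (SD, n = 2), with a −log10 q of 9.36 and 18.0. The summit was placed at −5 and −13, nearer the TSS than at Cga, although summits here are uncertain by about 100 bp. The peak extended from −446 to 721 bp in replicate 1 and from −290 to 709 bp in replicate 2. It therefore spanned the whole of exon 1, with the annotated starts of the 3 transcripts at 0, 31 and 55 bp and the start codon 76 bp downstream, and reached into intron 1. Its width of 1168 and 1000 bp stood at the percentiles 95.5 and 92.5.

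**Figure D1:**
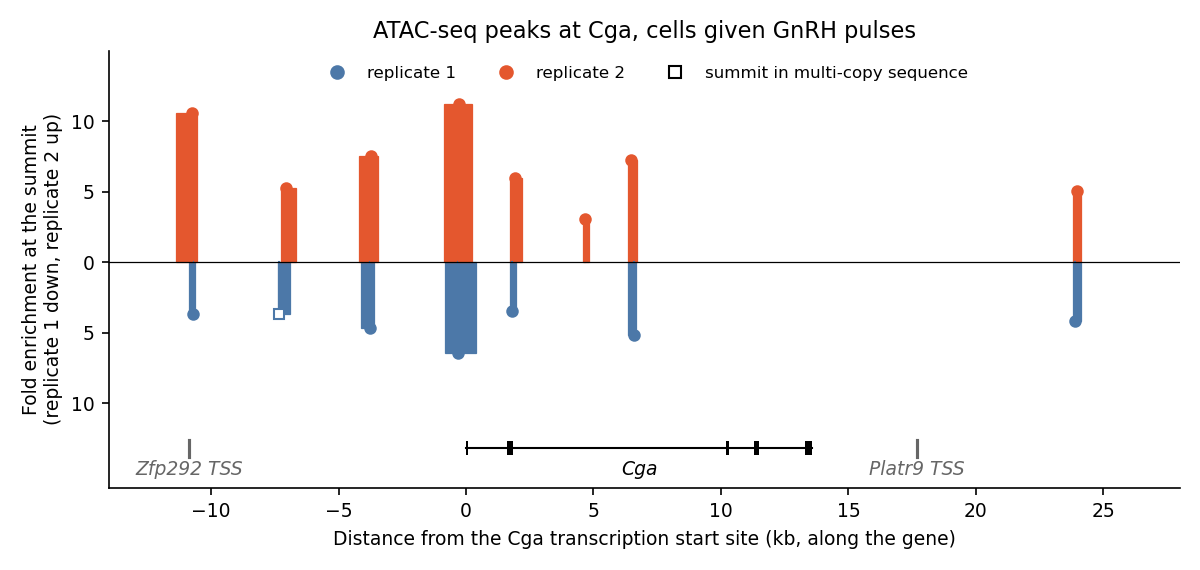
Fold enrichment of each peak in the Cga window against distance from the Cga TSS in kb, replicate 2 upward and replicate 1 downward; bars span the peak, circles mark single-copy summits, the open square a multi-copy summit, and black boxes exons of all transcripts. The promoter peak is the highest in both replicates, at 6.42 and 11.2, with 3 peaks upstream, others in intron 1 of transcript Cga-201 and 1 beyond the gene. Of these, the peak at 1.8 and 1.92 kb overlaps exon 2 of transcript Cga-203.

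**Figure D2:**
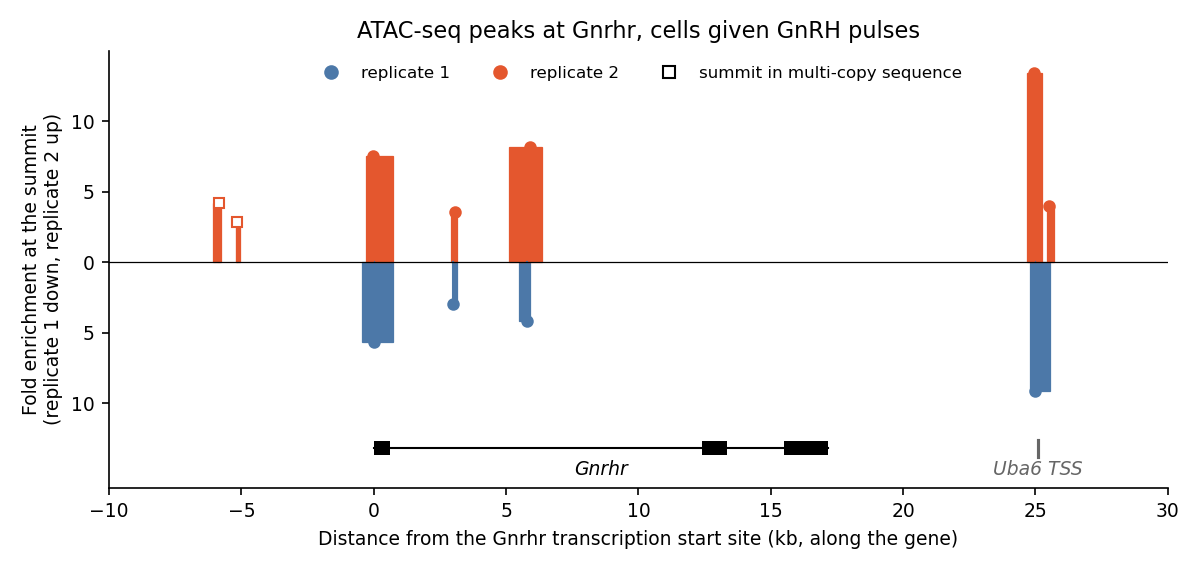
The same plot for Gnrhr, with distance along the gene from its TSS. The promoter peak (5.68 and 7.50) and the intron 1 peak near 5.9 kb (4.20 and 8.16) change order between replicates, the Uba6 promoter is the highest in both replicates, and the open squares upstream of the gene are peaks of replicate 2 with multi-copy summits.

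Tags at the Cga and Gnrhr promoters were compared within each replicate, where depth and background are shared. Cga had 1.14 times the tags of Gnrhr in replicate 1 (0.615 to 2.11) and 1.52 times in replicate 2 (0.957 to 2.43). Neither difference passed the two-sided exact binomial test, with adjusted p = 0.771 and 0.157 over the replicates. Cga was higher in 2 of 2 replicates, but the order of the promoters was not resolved at this depth.

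Among the protein-coding genes with a promoter peak, ranked by −log10 q, Cga stood at percentile 73.3 of 7076 genes in replicate 1 and 86.9 of 9728 in replicate 2. For Gnrhr the percentiles were 63.8 and 65.8. Both genes were thus above the middle of the genes with a peak, and 1793 and 1232 genes ranked above Cga, against 2433 and 3227 above Gnrhr. Lhb, which encodes the β-subunit of LH, was higher than either, at the percentiles 97.3 and 95.7.

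Promoters differ in their content of CpG, and the Cga promoter was poor in it. Its RefSeq promoter sequence has 1 CpG in 300 bp, at percentile 7.94 of 16517 genes with such a sequence, whose median was 15. Gnrhr has 10, at percentile 39.5, and Zfp292, in the Cga window, has 30, at percentile 83.2. Among 4279 genes with at most 4 CpG, the lowest 25% and a class formed after the values were seen, 6.17% had a promoter peak in both replicates, and Cga was one of them. Of the genes of this class with a peak, 71 ranked above Cga in replicate 1 and 49 in replicate 2. Its percentile in the class was 76.7 and 87.3.

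Upstream of Cga, 3 peaks were shared by both replicates. The nearest to the gene, 3.75 kb upstream in replicate 1 and 3.71 kb in replicate 2, held 18 tags (10.7 to 28.4) and 33 tags (22.7 to 46.3), with a fold enrichment of 4.69 and 7.50. It lies in intergenic sequence of 41.0% and 40.8% GC with a single-copy summit, and Cga is the gene with the nearest TSS. The next had its summit 7.33 kb upstream in replicate 1, where the 50 bp at the summit occurred at 25 places of the genome, and 7.08 kb upstream in replicate 2, where they occurred at 1. It held 14 and 23 tags, and its sequence was richer in GC, at 61.9% and 68.8%. The farthest, 10.7 and 10.8 kb upstream, was the promoter of Zfp292, a zinc finger gene, with its summit 116 and 50 bp from that TSS.

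Inside the gene body, each Cga peak lay upstream of the start codon, which is 10228 bp from the TSS, in exon 2 of transcript Cga-201. Intron 1 of this transcript spans most of that distance, from 83 to 10213 bp. A peak 6.59 kb (replicate 1) and 6.48 kb (replicate 2) past the TSS was the highest of them, with 20 tags (12.2 to 30.9) and 32 tags (21.9 to 45.2) and a fold enrichment of 5.19 and 7.28. At 1.80 and 1.92 kb, a peak with 13 and 26 tags overlapped the end of an alternative exon 2 of transcript Cga-203. Its summit lay inside this exon in replicate 1 and in the adjoining intron in replicate 2. The third, 4.66 kb downstream, was called in replicate 2 only, with 13 tags (6.92 to 22.2).

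Beyond the 3′ end, a single peak was found, with its summit 23.9 kb (replicate 1) and 24.0 kb (replicate 2) downstream of the TSS. It held 16 tags (9.15 to 26.0) and 22 tags (13.8 to 33.3) in intergenic sequence, and the nearest annotated start, 1473 and 1383 bp away, belonged to the processed pseudogene Gm12361. No peak was detected within 1 kb of the starts of Gm12361, Gm12362 or the noncoding RNA Platr9, which share the window.

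Gnrhr had 2 intronic peaks, both in intron 1, which in transcript Gnrhr-201 runs from 598 to 12413 bp. The stronger lay 5.79 kb (replicate 1) and 5.89 kb (replicate 2) past the TSS, with 16 tags (9.15 to 26.0) and 36 tags (25.2 to 49.8). Its fold enrichment was 4.20 and 8.16, with a −log10 q of 4.80 and 21.0. Its extent differed as well, since it was 435 bp wide in replicate 1 and 1270 bp in replicate 2, where it passed the promoter peak in width and in tags. The weaker, 2.99 and 3.06 kb downstream, held 11 and 15 tags, at the percentiles 7.77 and 36.8 of its list.

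Upstream of Gnrhr, replicate 1 had no peak, and replicate 2 had 1 at 5.16 kb with 12 tags and 1 at 5.85 kb with 18. Both lie wholly in soft-masked repeat sequence (100% of their length), with summits whose 50 bp occurred at 26 and 6 places of the genome. The position of the tags of such peaks is therefore less certain than for the single-copy peaks of the gene. Downstream, the promoter of Uba6, which encodes a ubiquitin-activating enzyme, gave the highest peak of the window, with 36 tags (25.2 to 49.8) and 60 tags (45.8 to 77.2) at 24968 and 24939 bp. In replicate 2 a separate peak of 17 tags followed at 25.5 kb, and the single Uba6 peak of replicate 1 overlapped both. The snRNA gene Gm25473 had no peak within 1 kb of its start.

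**Figure D3:**
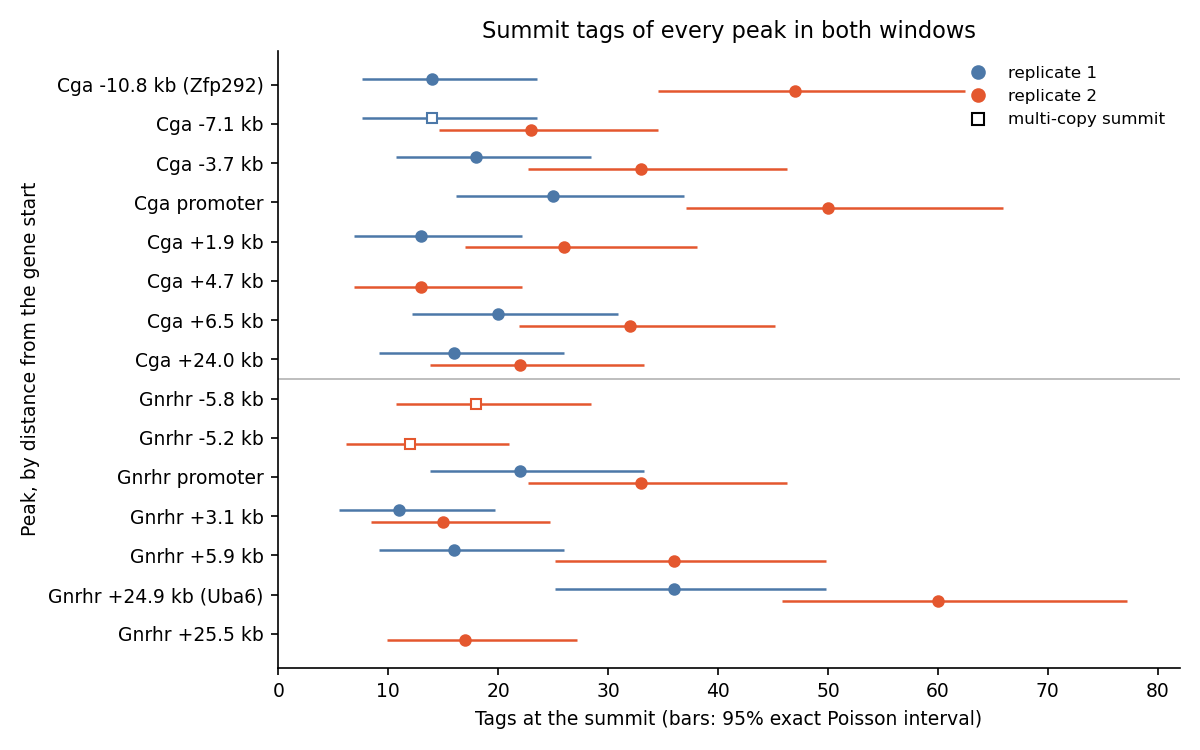
Tags at the summit of every peak in both windows, for replicate 1 and replicate 2, with 95% exact Poisson intervals as bars; peaks are ordered by distance from the TSS of their gene and open squares mark multi-copy summits. Intervals of the replicates overlap at most peaks, and those of the Zfp292 promoter (14 and 47 tags) and of the Cga promoter (25 and 50 tags) do not, although the Cga pair did not pass the exact binomial test that allows for the backgrounds (adjusted p = 0.475).

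The promoter was compared with each other peak of its window and replicate in 22 two-sided exact binomial tests on tags, adjusted together. At Cga, the promoter was higher than 4 of 7 peaks in replicate 2, among them the alternative exon peak (1.92 times, exact binomial, adjusted p = 0.029) and the downstream peak (2.27 times, adjusted p = 0.0135). It had the largest ratio to the weak peak at 4.66 kb, called in replicate 2 only (3.85 times, exact binomial, adjusted p = 6.64e-05). It was not distinguished from the peak 3.71 kb upstream (1.52 times, adjusted p = 0.136), the peak 6.48 kb downstream (1.56 times, adjusted p = 0.132) or the Zfp292 promoter (1.06 times, adjusted p = 0.839) by the same exact test. In replicate 1, none of the 6 comparisons passed, with ratios from 1.25 to 1.92.

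At Gnrhr in replicate 2, the promoter was higher than 2 of 6 other peaks and lower than 1, the Uba6 promoter (0.55 times, exact binomial, adjusted p = 0.029). The Gnrhr promoter exceeded the repeat peak 5.16 kb upstream, called in replicate 2 only (2.75 times, exact binomial, adjusted p = 0.0135). It also exceeded the weaker intronic peak at 3.06 kb (2.2 times, exact binomial, adjusted p = 0.0417). Against the intron 1 peak at 5.89 kb it had 0.917 times the tags (exact binomial, adjusted p = 0.839), and in replicate 1 it had 1.38 times the tags of that peak (adjusted p = 0.484). The promoter and this intronic peak thus changed order between replicates without a resolved difference in either. None of the 3 comparisons of replicate 1 passed, so all 7 calls came from replicate 2.

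Peaks of the replicates were paired where they overlapped by at least 1 bp. Every replicate 1 peak of the windows, 7 at Cga and 4 at Gnrhr, had a partner in replicate 2, as did 59.1% of the whole list. In the other direction, 7 of 8 and 5 of 7 did, against 51.6% of the list. This gave 12 pairs, of which the Uba6 peak of replicate 1 entered 2. Summits of a pair lay 8 bp apart at the Gnrhr promoter and 51 bp at the Cga promoter, with a median of 81 bp over the 12 pairs and of 103 bp over all 36210 pairs.

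Tags were higher in replicate 2 in 11 of the 12 pairs (91.7%), beside 73.3% of all pairs and 89.7% of those with single-copy summits, so this direction is not particular to these loci. The median ratio of tags in replicate 2 to replicate 1 was 1.65 over these pairs, 1.23 over all pairs and 1.53 over the 11505 pairs whose summits both occurred once in the genome, a set added with the data in view. After the backgrounds, the log2 ratio was above 0 in 91.7%, 57.2% and 80.8% of these sets. The backgrounds, 1 constant per replicate, give 53.7% of tags to replicate 2. Against that share, more tags in replicate 2 were called for 1 of the 12 pairs, beside 1.07% of all pairs, and more in replicate 1 for 0 of 12, beside 0.157% (two-sided exact binomial test, adjusted over all pairs). The pair called was the Zfp292 promoter, with 14 and 47 tags, a log2 ratio of 1.53 after the backgrounds and an adjusted p of 0.0242 (exact binomial). This test sets the libraries against each other and covers counting error only.

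For the Cga promoter, the log2 ratio of replicate 2 to replicate 1 was 0.79 (exact binomial p = 0.0274, adjusted p = 0.475), and for the Gnrhr promoter 0.37 (exact binomial p = 0.418, adjusted p = 1). The intron 1 peak of Gnrhr had 0.96 (exact binomial p = 0.026, adjusted p = 0.465). None of these passed over all pairs. The pair of the Uba6 peak of replicate 1 with the small peak of replicate 2 beside it had −1.30 (exact binomial, adjusted p = 0.111), which compares the summits of different peaks.

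**Figure D4:**
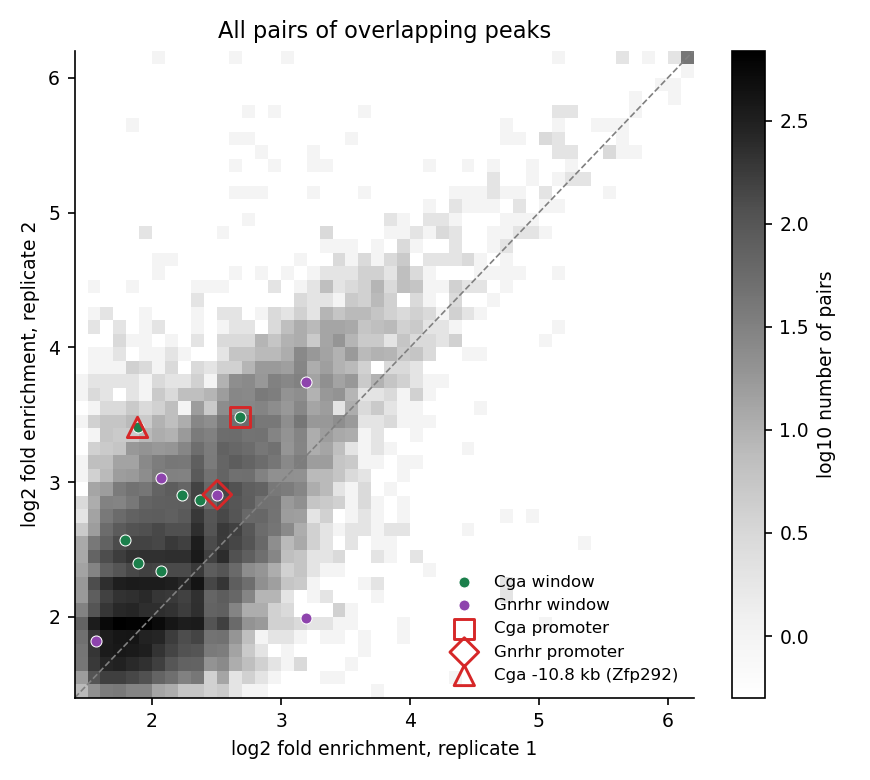
Log2 fold enrichment in replicate 2 against replicate 1 for all 36210 pairs of overlapping peaks (grey, log10 number of pairs per cell, with values beyond the axes drawn in the last cell) and for the 12 pairs of both windows (coloured); the dashed line marks equal values. The outlined markers are the promoters of Cga, Gnrhr and Zfp292, of which Zfp292 lies farthest from the line.

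Windows of other genes were counted in the same way. The 7 and 8 peaks of the Cga window stood at the percentiles 90.2 and 89.2 of 21924 protein-coding genes, for which the medians were 2 and 3. The 4 and 7 peaks of the Gnrhr window stood at 72.3 and 85.5. With peaks restricted to shared ones with a single-copy summit, Cga had 6 in replicate 1 (percentile 97.7) and 7 in replicate 2 (percentile 99.0), and Gnrhr had 4 (percentile 92.2) and 5 (percentile 96.4), where the median gene had 1. These percentiles describe the lists, and longer genes have wider windows.

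Other genes of the same systems were read at their promoters. Of 6 genes for subunits of glycoprotein hormones, Cga and Lhb had a promoter peak in both replicates, while Fshb, Tshb, Gpha2 and Gphb5 had none in either. Of 11 receptors for hypothalamic hormones, Gnrhr alone had a peak in both. These are 33.3% of the subunits and 9.09% of the receptors, beside 30.8% of all protein-coding genes. Sstr2 and Adcyap1r1, receptors for somatostatin and PACAP, had one in replicate 2 only, with a fold enrichment of 3.97 and 3.09.

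Of 16 factors known to act on the Cga or Gnrhr promoter, 10 had a promoter peak in both replicates, or 62.5%, and 14 in replicate 2, beside 30.8% and 44.4% of all protein-coding genes. The LIM homeodomain genes Lhx2 (fold enrichment of 6.42 and 9.04) and Isl1 (4.20 and 9.26) were among them, as was Nr0b1 (2.96 and 5.95), a repressor of SF1. Nr5a1, which encodes SF1, had a peak in replicate 2 only, with a fold enrichment of 3.97, and Lhx3 and Pitx1 had none within 1 kb of a TSS. Of 8 genes that couple the GnRH receptor to its pathway, 3 had a peak in both replicates, or 37.5%, and 6 in replicate 2. The shares of all protein-coding genes were the same 30.8% and 44.4%. The median of the mean fold enrichment of the genes with a peak in both replicates was 6.64 for the factors and 7.68 for the 3 coupling genes. It was 6.17 over all 6744 protein-coding genes with such a peak.

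Among cell type markers, 3 of 6 for gonadotropes (Lhb, Cga and Gnrhr) had a promoter peak in both replicates, Nr5a1 and Foxl2 in replicate 2 only, and Fshb in neither. None of the 6 markers of other pituitary lineages had one in either replicate. With a peak in both replicates at 30.8% of all protein-coding genes and at 6.17% of those of low CpG content, such as Tshb, lists of 6 genes tell little about cell type.

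**Figure D5:**
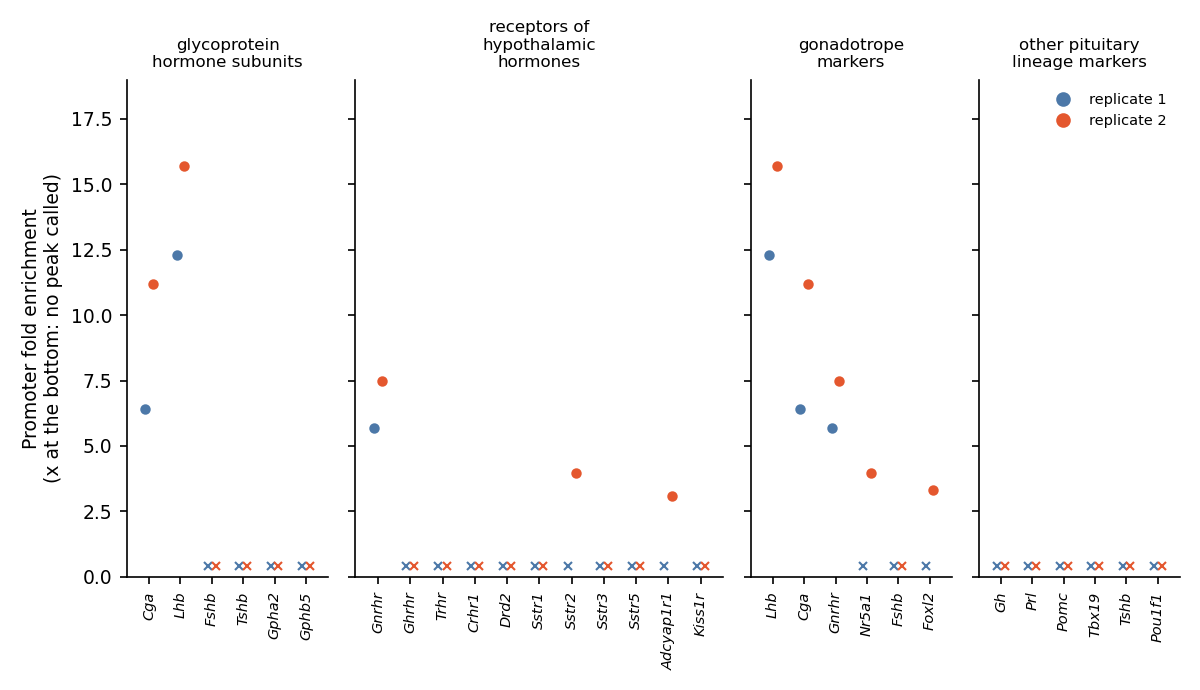
Promoter fold enrichment in replicate 1 and replicate 2 for hormone subunits, receptors and markers; crosses at the bottom mark genes without a called promoter peak in that replicate. Cga (6.42 and 11.2) and Gnrhr (5.68 and 7.50) stand below Lhb (12.3 and 15.7), and markers of other lineages have only crosses.

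Promoter fold enrichment over the 2 samples was nearest to that of Gnrhr at 7 of 6743 genes, which had the same tags, and the first 3 of them in alphabetical order were Atg16l1, Ccpg1 and Ccpg1os. A likeness over 2 samples of 1 condition describes peak height alone.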

How the data were processed

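ATAC-seq had been done on 2 replicate samples of GnRH-treated LβT2 cells. Per the submitters' processing notes, reads were mapped with Bowtie2 to GRCm38 (mm10) and peaks were called with MACS2, for each replicate on its own. The study's methods name duplicate removal, a genome-size preset for fly and no input control. What this preset did to the background, fold and q, and so to which peaks were called, was not tested. For every peak, the files deposited by the authors hold a whole-number score, a fold enrichment (the ratio of summit tags to background, with 1 added to each), and p and q as −log10. The direction of the 100 bp read shift is not given in the sources used here, so summits, and the motif counts within 100 bp of them, are uncertain by about that shift.

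Tags were solved from fold and p. A single background per replicate returned each deposited −log10 p within 0.000201. It is thus 1 constant for the whole list and not a local measure, and it was solved without read totals. A gene's promoter peak was the one with the highest −log10 q among summits within 1 kb of a GENCODE TSS. Copies were counted as exact occurrences of the 50 bp at a summit, on either strand. Tests on tags were two-sided exact binomial tests with Benjamini-Hochberg adjustment and a threshold of 0.05, and compare libraries, not conditions. Promoter sequences came from RefSeq. Genes named were Cga, Gnrhr, those with a TSS in either window, those of the lists, and the 3 nearest to Gnrhr in promoter fold. The members and lists were chosen with earlier results of these data known. Alternatives concerned the threshold on q, window width, overlap rule, TSS annotation, ranking, motif window and leaving out either replicate. The scripts ran under Python 3.11.15 with numba 0.67.0, scipy 1.17.1, pandas 2.3.3, matplotlib 3.10.9 and numpy 2.4.6, and the measures were tested on simulated data in 10 checks.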

Additional observations from a re-analysis of the deposited data

How the results depend on the processing

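Of 42 values recomputed from both replicates under alternatives, 30 stayed within the replicate SD, within 1.5 times a count, or on the same side of the test's threshold, and 12 did not. The 30 include the promoter fold enrichment and −log10 q of both genes under every TSS definition tried, which chose the same peaks. Fold and −log10 q follow from the same tags, so these are not separate checks. For the same reason, ranking by fold enrichment could not change the order and is no test of stability. Leaving out 1 of 2 replicates gives the other's value and is no test of stability: −log10 q ranged from 12.0 to 36.0 at Cga and from 9.36 to 18.0 at Gnrhr. The mean number of peaks fell with a stricter threshold, from 7.5 to 3 at Cga and from 5.5 to 2 at Gnrhr with −log10 q of at least 10, and to 3 at Gnrhr with at least 5. Of the 7 and 5 shared pairs, 4 at Cga and 3 at Gnrhr had summits within 100 bp, 3 at Gnrhr overlapped by at least 50% of both peaks, and 1 in each window, the Cga promoter and the Uba6 promoter, reached −log10 q of 10 in both replicates. Ranked among all peaks instead of promoter peaks, Cga stood at percentile 94.8 and Gnrhr at 90.0, instead of 80.1 and 64.8, since the list holds many low peaks away from promoters. The count of 8 motif matches at the promoter summits rose to 18 with 150 bp on either side and to 66 over whole peaks, which are longer. The 7 calls of a promoter against other peaks of its window ranged from 0 without replicate 2 to 7 without replicate 1, an alternative chosen after seeing the data, since all came from replicate 2. Also chosen after seeing the data were the 2 further motif forms, the class of genes of low CpG content and the restriction to single-copy pairs. No paired analysis was possible because there is 1 group. With 11 to 60 tags at a summit, a peak's height is known to no better than its counting interval. A region without a peak may hold accessible chromatin that was not detectable at this depth and with this background.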

Other observations

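Outside the 50 kb flanks, the next summit upstream of Cga was 108 kb from the gene in replicate 1 and 105 kb in replicate 2, and the next downstream 139 kb and 74.0 kb. At Gnrhr the next summit was 166 and 149 kb upstream and 99.1 and 98.9 kb downstream. These peaks held 11 to 17 tags, and 3 of the 4 in replicate 1, all but the one upstream of Cga, had multi-copy summits (6963, 16 and 2957 copies). In the Cga window no peak lay farther upstream than the Zfp292 promoter, and in the Gnrhr window none lay farther downstream than an intron of Uba6.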
